A study of Mus musculus with 18 samples.

Results

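Rsad2 encodes viperin and Cmpk2 encodes UMP-CMP kinase 2, and the genes lie side by side on mouse chromosome 12. The pair was taken by gene name from the deposited expression table and makes up 2 of its 16248 listed genes. Both had values in all 18 libraries and both were among the 13983 genes tested.

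The libraries are bulk RNA sequencing (RNA-seq) of endothelial cells (ECs), which form the inner wall of blood vessels, from female mice of the FVB strain. Normal ECs are those of wild-type mammary fat pad. MMTV-PyMT ECs came from breast tumours that arise on their own in mice whose viral MMTV promoter drives the PyMT oncogene in the mammary epithelium, so that the transgene is not aimed at the ECs themselves. Implanted ECs came from tumours grown in the fat pad of FVB mice from cultured tumour cells of such MMTV-PyMT mice, mixed with Matrigel. Each tissue was injected with phosphate-buffered saline (PBS) or with cGAMP, an agonist of STING, the adaptor of cytosolic DNA sensing, and was collected 3 hours later. Live CD45-negative and CD31-positive cells were sorted. The 6 groups held 3 libraries each. A figure legend counts 3 mice per group, spread over 3 independent experiments, and the labels do not tie the libraries to mice or to experiments, so experiment could not be a term in the tests.

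Viperin is a radical S-adenosylmethionine (SAM) enzyme with an iron-sulfur cluster, and sits on the endoplasmic reticulum and on lipid droplets. It turns the nucleotide CTP into ddhCTP, which ends RNA chains made by some viral polymerases. Cmpk2 is a mitochondrial kinase that phosphorylates CMP, UMP and their deoxy forms, a step on the way to CTP, and both genes are known to be strongly induced by interferon and by the innate sensors that lead to it. STING acts through the kinase TBK1 and the factor IRF3, which switch on interferon beta and, in many cells, some interferon-stimulated genes directly.

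In the GENCODE M21 annotation of GRCm38 (mm10), Rsad2 (ENSMUSG00000020641.16) spans chr12:26442746-26456452 on the minus strand and Cmpk2 (ENSMUSG00000020638.8) spans chr12:26469204-26479837 on the plus strand. They are transcribed away from each other from start sites 12.75 kb apart, and no other annotated gene overlaps the stretch between them or either of them. Rsad2 has 6 exons and codes for 362 residues (362 codons of coding sequence), and Cmpk2 has 5 exons and codes for 447. Their summed exon lengths of 4335 and 4163 bases are close, so FPKM values (fragments divided by gene length in kilobases and by a library factor) can be set side by side.

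The sequences just upstream of both starts are shown because the genes moved together. Both genes matched the RefSeq promoter table (GRCm38.p6), and the 250 bases before each start are printed 5′ to 3′ on the strand of the gene, chr12:26456453-26456702 (minus) for Rsad2 and chr12:26468965-26469214 (plus) for Cmpk2. The printed Cmpk2 stretch ends inside the GENCODE span of the gene, because the RefSeq start lies further in than the GENCODE start used above. Capitals mark the only match to the 3 motifs searched.
Rsad2 promoter: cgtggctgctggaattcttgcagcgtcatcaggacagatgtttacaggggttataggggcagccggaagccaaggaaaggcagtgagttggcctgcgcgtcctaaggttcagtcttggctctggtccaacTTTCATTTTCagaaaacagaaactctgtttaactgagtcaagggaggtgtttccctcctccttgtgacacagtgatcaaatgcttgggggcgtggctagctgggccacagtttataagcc
Cmpk2 promoter: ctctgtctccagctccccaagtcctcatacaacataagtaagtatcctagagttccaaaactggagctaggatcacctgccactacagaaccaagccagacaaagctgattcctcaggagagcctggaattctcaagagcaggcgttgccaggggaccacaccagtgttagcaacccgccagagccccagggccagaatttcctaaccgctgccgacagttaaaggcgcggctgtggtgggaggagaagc
Both strands of 300-base windows, reaching 50 bases past the start, were searched. The core of the interferon-stimulated response element, written GAAANNGAAA, occurred 1 time in the Rsad2 window, on the other strand, from 120 to 111 bases before the start. It occurred 0 times in the Cmpk2 window, and 3.44% of all 32851 promoter windows in the table held it. The gamma-activated site core TTCNNNGAA (8.3% of windows) and the NF-kB form GGGANNTTCC (1.47% of windows) had no match in either gene. These are matches of letters only.

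As a check of the libraries, whole reads could be recovered from the FPKM values of 99.94% of genes, and they came to between 9064738 and 12054995 reads per library, a 1.33-fold range. Reads carry no molecular identifiers, so read-based intervals cover counting error only. The 8 EC markers were all listed, with summed FPKM from 633 to 1664 per library, while the 3 adipocyte markers were not in the table. Epithelial markers were also present although CD31-positive cells were sorted. Their summed FPKM was 774 to 840 in MMTV-PyMT ECs under PBS and 547 to 754 under cGAMP, against 230 to 500 in the normal and the implanted ECs. In MMTV-PyMT PBS 2 and 3 the epithelial sums (832 and 840) were above the EC sums (677 and 633). The mural markers summed to 638 to 881 in normal ECs and to 151 to 392 in the tumour ECs. The fibroblast markers summed to 34.7 to 63.2 in normal, 83.3 to 134 in MMTV-PyMT and 182 to 476 in implanted ECs. Of 10 leukocyte markers 8 were listed, and their sum lay between 17.7 and 68.4 in 17 libraries and reached 223 in implanted cGAMP 2.

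Rsad2 was low but measurable in ECs of every tissue under PBS. In normal ECs its FPKM was 5.65, 9.2 and 6.77 in replicates 1 to 3 (7.21 ± 1.82, SD, n = 3). In MMTV-PyMT ECs it was 2.21, 4.9 and 2.8 (3.3 ± 1.41, SD, n = 3), and in implanted ECs 13.6, 13.6 and 12 (13.1 ± 0.892, SD, n = 3). The 3 tissues did not overlap, with MMTV-PyMT ECs lowest and implanted ECs highest. Differences between tissues were common in the table. By the limits given below, limma called 7.33% of tested genes between implanted and MMTV-PyMT ECs under PBS. It called 11.5% between implanted and normal ECs and 13.9% between MMTV-PyMT and normal ECs. Calls and lack of overlap are different measures, and the share of genes without overlap was not counted. The Rsad2 values rest on 127 to 549 reads per library, so that even the lowest library, MMTV-PyMT PBS 1, was well above its counting error.

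After cGAMP, Rsad2 was among the most abundant transcripts of the cells. In normal ECs its FPKM was 852, 942 and 649 (814 ± 150, SD, n = 3). In MMTV-PyMT ECs it was 754, 775 and 714 (748 ± 31.3, SD, n = 3), and in implanted ECs 2079, 1592 and 1604 (1759 ± 278, SD, n = 3). Every implanted library lay above every library of the other tissues, while the MMTV-PyMT values fell inside the range of the normal ones. By FPKM, Rsad2 was between place 12 and place 22 of the 16248 genes in the 9 cGAMP libraries, against places 2964 to 9590 under PBS. In implanted cGAMP 1 it took 0.671% of all recovered reads (Wilson 95% interval 0.666 to 0.676%), the largest share of any library.

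Cmpk2 started from much the same level and reached a lower one. Under PBS its FPKM was 4.88, 6.93 and 6.03 in normal ECs (5.95 ± 1.02, SD, n = 3), and 3.26, 6.58 and 5.82 in MMTV-PyMT ECs (5.22 ± 1.74, SD, n = 3). In implanted ECs it was 16.1, 12.2 and 9.97 (12.8 ± 3.13, SD, n = 3). The implanted libraries lay above the rest, and normal and MMTV-PyMT ECs overlapped. Under cGAMP it was 261, 244 and 155 in normal ECs (220 ± 56.8, SD, n = 3) and 273, 330 and 328 in MMTV-PyMT ECs (310 ± 32.4, SD, n = 3). In implanted ECs it was 1147, 901 and 913 (987 ± 139, SD, n = 3). The 3 tissues did not overlap under cGAMP, in the order normal, MMTV-PyMT and implanted, and Cmpk2 stood at places 24 to 123 of all genes. Under cGAMP, too, many genes differed, as limma called 10.4% of tested genes between implanted and MMTV-PyMT ECs. It called 14.2% between implanted and normal ECs and 10.4% between MMTV-PyMT and normal ECs. Here, too, the share of genes without overlap was not counted. The levels of both genes by library are drawn on a common log axis.

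**Figure D1:**
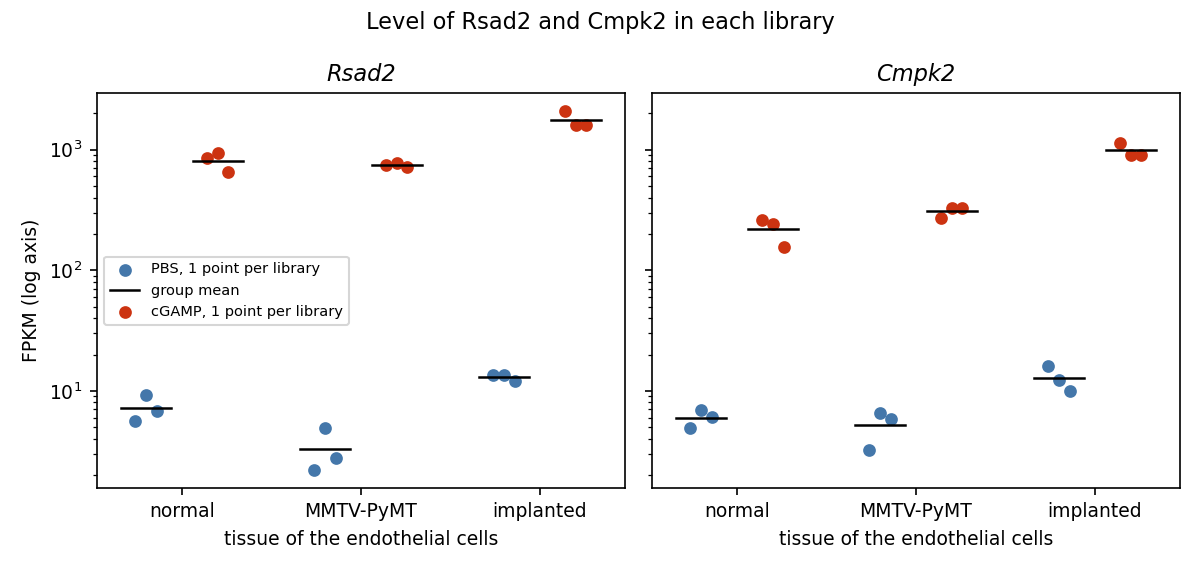
FPKM of Rsad2 (left) and Cmpk2 (right) in each library, on a log axis, by tissue of the ECs. Blue points are PBS libraries, red points cGAMP libraries and black lines group means. Rsad2 lies between 2.21 and 13.6 under PBS and between 649 and 2079 under cGAMP, and Cmpk2 between 3.26 and 16.1 and between 155 and 1147.

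cGAMP raised both genes in ECs of all 3 tissues, and both stood near the top of all changes. As a ratio of mean FPKM, Rsad2 rose 113-fold in normal, 227-fold in MMTV-PyMT and 135-fold in implanted ECs, and Cmpk2 rose 37-fold, 59.4-fold and 77.3-fold. On the scale of log2(FPKM + 1), on which all further log2 changes are given and which understates the change of low genes, Rsad2 rose by 6.64 ± 0.20 (SE) in normal ECs (limma with Benjamini-Hochberg adjustment over all tested genes, adjusted p = 2.71e-12). It rose by 7.49 ± 0.20 in MMTV-PyMT ECs (limma, adjusted p = 9.84e-13) and by 6.96 ± 0.20 in implanted ECs (limma, adjusted p = 1.57e-12). Cmpk2 rose by 4.97 ± 0.23, 5.68 ± 0.23 and 6.18 ± 0.23 in the same order (limma, adjusted p = 3.06e-10, 2.8e-11 and 1.56e-11). Ranked by log2 change among 13983 genes, Rsad2 held places 3 (normal), 2 (MMTV-PyMT) and 1 (implanted), and Cmpk2 held places 7, 8 and 4. Calling a gene required an adjusted p-value below 0.05 together with a log2 change of 1 or more in either direction. Both members were called higher in each tissue, as were 3.02% of all tested genes for the normal ECs, 2.49% for the MMTV-PyMT ECs and 6.13% for the implanted ECs. In bulk samples, more cells that express a gene and more RNA per cell cannot be told apart. The counts were made per gene, and whether they used the strand was not stated, but no annotated gene overlaps either member.

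The next question was whether the response of the pair differed between the tissues, which was tested as the difference of the cGAMP effects. For Cmpk2 the effect was larger in implanted than in normal ECs by 1.22 ± 0.32 on the log2 scale (95% interval 0.54 to 1.89; limma, adjusted p = 0.0141), a call that 4.68% of tested genes received in that contrast in either direction. This call ended when normal cGAMP 3, the library with the lowest Cmpk2 among the cGAMP libraries, was left out (0.98, limma, adjusted p = 0.0366), with scaling by total reads (0.88, limma, adjusted p = 0.0439) and with quantile normalization (0.47, limma, adjusted p = 0.261). For Rsad2 the same difference was 0.32 (95% interval −0.28 to 0.91; limma, adjusted p = 0.474), and it turned to −0.02 with scaling by total reads and to −0.90 with quantile normalization.

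Between MMTV-PyMT and normal ECs the difference of effects was 0.85 for Rsad2 (95% interval 0.25 to 1.45; limma, adjusted p = 0.073) and 0.72 for Cmpk2 (0.04 to 1.39; limma, adjusted p = 0.182). Neither passed, against 1.75% of tested genes called. The value of Rsad2 was 0.31 with quantile normalization (limma, adjusted p = 0.575). It was past the threshold with voom on recovered reads (1.13, limma, adjusted p = 0.0212) and without MMTV-PyMT PBS 2 (1.10, limma, adjusted p = 0.0169), the library with the highest Rsad2 of its group. Between implanted and MMTV-PyMT ECs it was −0.54 for Rsad2 (−1.13 to 0.06; limma, adjusted p = 0.26) and 0.50 for Cmpk2 (−0.18 to 1.18; limma, adjusted p = 0.37), with opposite signs for the members, and 2.47% of tested genes were called. With quantile normalization these values became −1.21 for Rsad2 (limma, adjusted p = 0.0203) and −0.12 for Cmpk2. The 3 comparisons of effects share groups with each other. Changes and differences are plotted with their intervals.

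**Figure D2:**
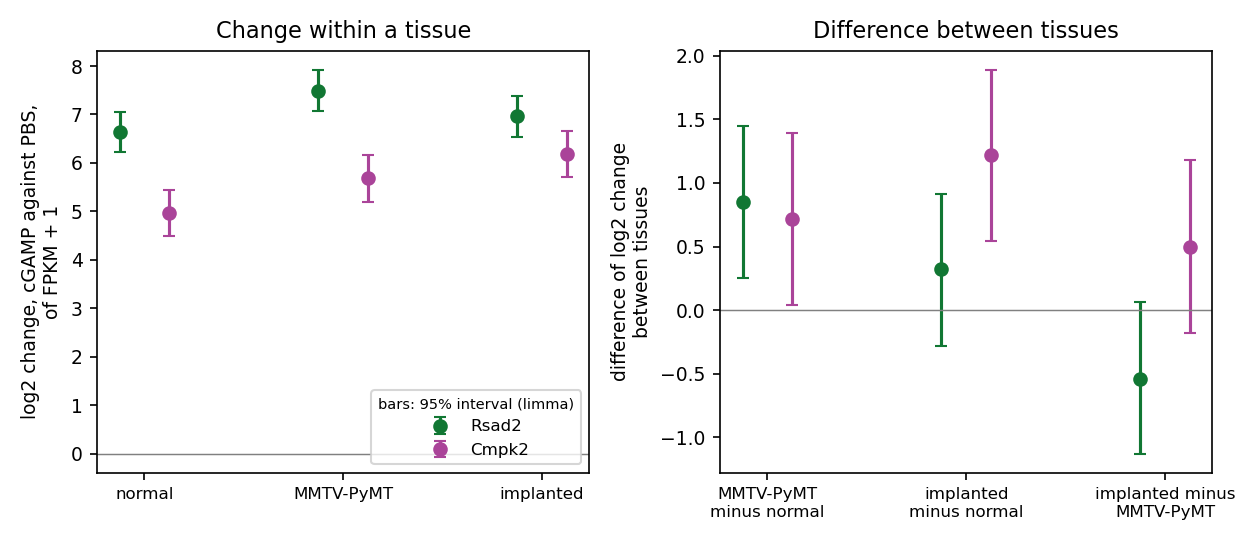
Left, log2 change of FPKM + 1 by cGAMP against PBS in ECs of each tissue. Right, the difference of that change between tissues. Points are limma estimates and bars their 95% intervals, Rsad2 in green and Cmpk2 in purple. All 6 changes lie between 4.97 and 7.49, and among the differences Cmpk2 in implanted minus normal ECs (1.22) lies farthest from 0.

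The levels of the pair were then compared between tissues under 1 treatment. Under PBS, Rsad2 was higher in implanted than in MMTV-PyMT ECs by 1.76 ± 0.20 (limma, adjusted p = 5.78e-06), and Cmpk2 by 1.16 ± 0.23 (limma, adjusted p = 0.000647). Both were called, against 7.33% of tested genes, but the fold of Cmpk2 fell below the limit without MMTV-PyMT PBS 1 (0.91) or without implanted PBS 1 (0.99). Against normal ECs, the implanted ECs had 0.80 ± 0.20 more Rsad2 (limma, adjusted p = 0.00343) and 0.97 ± 0.23 more Cmpk2 (limma, adjusted p = 0.00205). These passed the adjusted p-value but not the fold limit, and 11.5% of tested genes were called. Cmpk2 did pass it with a pseudocount of 0.1 (1.08), with voom (1.07), without normal PBS 2 (1.07) and without implanted PBS 3 (1.12). MMTV-PyMT ECs had less Rsad2 than normal ECs, at −0.96 ± 0.20 (limma, adjusted p = 0.000732), just short of the fold limit, where 13.9% of tested genes were called. The limit was passed with a pseudocount of 0.1 (−1.15), with voom (−1.29), without normal PBS 1 (−1.10) and without MMTV-PyMT PBS 2 (−1.21). Cmpk2 differed by −0.19 ± 0.23 there (95% interval −0.67 to 0.29; limma, adjusted p = 0.492), and by 0.06 without MMTV-PyMT PBS 1.

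Under cGAMP, implanted ECs held more of both transcripts than MMTV-PyMT ECs, by 1.22 ± 0.20 for Rsad2 (limma, adjusted p = 0.000112) and by 1.66 ± 0.23 for Cmpk2 (limma, adjusted p = 1.97e-05), where 10.4% of tested genes were called. They also held more than normal ECs, by 1.12 ± 0.20 for Rsad2 (limma, adjusted p = 0.000177) and by 2.19 ± 0.23 for Cmpk2 (limma, adjusted p = 6.32e-07), where 14.2% were called. The Cmpk2 calls held with every scaling tried. The Rsad2 calls changed with the scaling of the libraries, because with scaling by total reads they were 0.88 against MMTV-PyMT ECs and 0.62 against normal ECs, and with quantile normalization 0.56 and −0.12, the latter with a changed sign. The call against normal ECs also ended without normal cGAMP 3 (0.96) or without implanted cGAMP 1 (0.99). Scaling by total reads moved the median over the tested genes in the comparison of implanted with normal ECs under cGAMP from 0.04 to −0.33, and in that with MMTV-PyMT ECs to −0.23. MMTV-PyMT and normal ECs differed by −0.11 for Rsad2 (95% interval −0.53 to 0.32; limma, adjusted p = 0.678) and by 0.53 for Cmpk2 (0.05 to 1.0; limma, adjusted p = 0.0631), neither past the threshold, and 10.4% of tested genes were called. The difference of Rsad2 was −0.68 with quantile normalization (limma, adjusted p = 0.0182), under the fold limit, and 0.01 without normal cGAMP 2.

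The ratio of Rsad2 to Cmpk2 within a library does not depend on a scaling that multiplies all genes of a library by the same factor. Quantile normalization is not such a scaling and was not tried for the ratio. Under PBS the ratio of FPKM was 1.16, 1.33 and 1.12 in normal ECs, 0.678, 0.744 and 0.48 in MMTV-PyMT ECs and 0.84, 1.12 and 1.21 in implanted ECs. Cmpk2 was thus the more abundant transcript in all MMTV-PyMT libraries and in implanted PBS 1, and Rsad2 in the rest. Under cGAMP the ratio was 3.27, 3.86 and 4.18 in normal ECs, 2.77, 2.35 and 2.18 in MMTV-PyMT ECs and 1.81, 1.77 and 1.76 in implanted ECs. Rsad2 was the more abundant in all 9 libraries, and the 3 tissues did not overlap.

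Within every tissue each cGAMP library had a higher ratio than each PBS library. Averaged over tissues, cGAMP raised the ratio 2.75-fold, or 1.46 on the log2 scale (2-sided exact permutation test within tissues over 8000 arrangements, p = 0.00025, the smallest they can give, adjusted p = 0.0015 over 6 tests of the ratio). The mean log2 ratio rose from 0.26 ± 0.13 to 1.91 ± 0.18 in normal ECs, from −0.68 ± 0.33 to 1.27 ± 0.18 in MMTV-PyMT ECs and from 0.06 ± 0.28 to 0.83 ± 0.02 in implanted ECs (SD, n = 3), which is 3.13-fold, 3.88-fold and 1.7-fold. With 3 against 3 libraries the exact permutation test of a single tissue cannot go below p = 0.1, and each tissue gave 0.1 (adjusted p = 0.1). Among the 3 tissues the ratio differed under cGAMP (exact permutation test over 1680 arrangements, p = 0.00357, adjusted p = 0.0107) and under PBS (exact permutation test, p = 0.0143, adjusted p = 0.0286). These last tests were added after the values had been seen, and without MMTV-PyMT PBS 3 the one under PBS gave an exact p of 0.05. The plot of ratios shows every library.

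**Figure D3:**
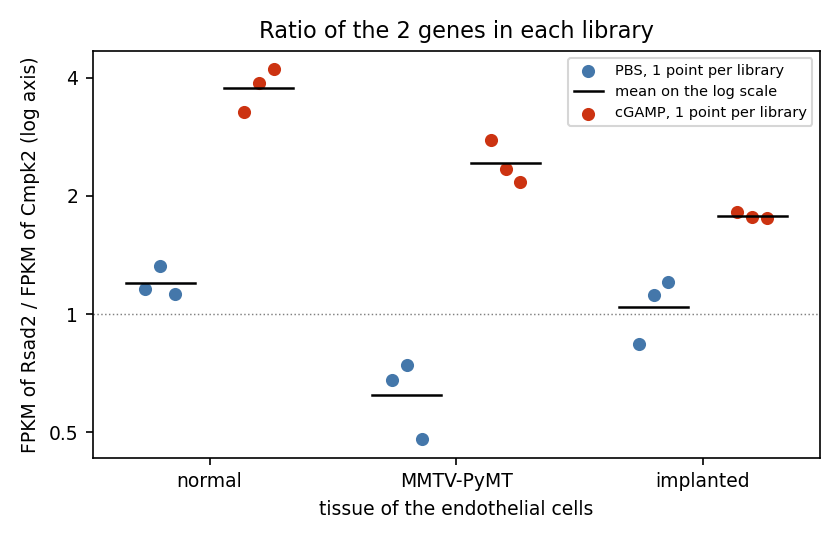
FPKM of Rsad2 divided by FPKM of Cmpk2 in each library, on a log axis, by tissue of the ECs. Blue points are PBS libraries, red points cGAMP libraries, black lines means on the log scale, and the dotted line marks equal levels. PBS libraries lie between 0.48 and 1.33, and cGAMP libraries between 1.76 and 4.18 in the order implanted, MMTV-PyMT and normal.

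Within groups, the 2 genes mostly went up and down together. In 13 of 18 libraries both deviated from their group mean in the same direction, in 6 of 9 PBS libraries and in 7 of 9 cGAMP libraries. Normal cGAMP 3 was low for both, by −0.31 for Rsad2 and by −0.47 for Cmpk2 on the log2 scale, and MMTV-PyMT PBS 2 was high for both, by 0.50 and 0.33. Implanted PBS 1 and 3 had almost the same Rsad2 (0.05 and −0.11 from the mean) while their Cmpk2 differed (0.34 and −0.30). Deviations within a group depend on each other, and the same count was not made for other gene pairs. Genes of 1 library also share its depth and scaling, so this agreement is a description. Over all 18 libraries the Pearson correlation of log2(FPKM + 1) of the pair was 0.989, which mostly reflects the split between PBS and cGAMP.

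The genes whose pattern over the 18 libraries was most like the mean of the pair, by Pearson correlation of log2(FPKM + 1), were Ifit2 (0.9972), Ifih1 (0.9971), Zc3hav1 (0.9936), Trim21 (0.9933) and Oasl1 (0.9931). They code for an interferon-induced RNA-binding protein, the RNA sensor MDA5, the zinc-finger antiviral protein ZAP, an antibody receptor of the cytosol and an OAS-like protein. Ifit2 was also alike in level, with a mean FPKM of 6.66 under PBS and 609 under cGAMP in normal ECs, 3.52 and 544 in MMTV-PyMT ECs, and 18 and 1473 in implanted ECs. Some members of the Ifit family are near-identical in sequence, and how reads matching several genes were counted is not stated. Zc3hav1 had the same pattern over a much smaller range, from 19.7 to 68.2 in normal, from 15.9 to 65.6 in MMTV-PyMT and from 20.8 to 85.1 in implanted ECs. These likenesses carry no test, because the points share the treatment.

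Lists of related genes were set beside the pair, with counts of called genes for normal ECs, then MMTV-PyMT ECs, then implanted ECs. Of 24 other interferon-induced effectors, 20, 21 and 23 were called higher and none lower, against 3.02%, 2.49% and 6.13% of all tested genes called higher. Their median log2 changes were 2.69, 3.03 and 2.94 against −0.04, −0.04 and −0.01 for all tested genes. Their largest rises were those of Oasl1 (7.01) and Ifit1 (6.58) in normal ECs, Ifit1 (7.16) and Oasl1 (6.97) in MMTV-PyMT ECs, and Ifit2 (6.32) and Oasl1 (6.18) in implanted ECs. The 6.96 of Rsad2 in implanted ECs thus stood above all 24, its 6.64 in normal ECs above all but Oasl1, and its 7.49 in MMTV-PyMT ECs above all. With voom the highest of the 24 were at 7.91, 7.92 and 7.06, and Rsad2 was at 6.84, 7.97 and 7.03, so that its place in implanted ECs changed.

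The list of interferon signalling covers the route from STING to the interferon receptor and its feedback. Of its 15 genes, 7, 7 and 8 were called higher, against 3.02%, 2.49% and 6.13% of all tested genes. The largest rises were those of Usp18, a brake on interferon receptor signalling (4.03, 4.75 and 4.56), followed by Socs1, another inhibitor, in normal (2.43) and implanted ECs (2.60) and by Stat2 in MMTV-PyMT ECs (2.80). None of the list was called lower, and in normal ECs 3 passed the adjusted p-value on the lower side, Tyk2 (−0.83), Irf3 (−0.55) and Ifnar1 (−0.32), as did Ifnar1 in implanted ECs (−0.42). With voom 1 gene of the list was called lower in normal ECs and 0 in the others.

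Most of the pyrimidine nucleotide enzymes, the setting in which Cmpk2 works and from which viperin takes its CTP, were not called. Of 30 genes 29 were in the table, and 2, 3 and 4 of them were called higher, with medians of −0.03, −0.02 and −0.18. The shares of all tested genes called higher were 3.02%, 2.49% and 6.13%. Upp1, which splits uridine, rose by 2.22, 2.20 and 2.15. Nt5c3, a cytosolic nucleotidase that removes the phosphate from CMP and UMP, rose by 1.76, 1.92 and 3.59. Samhd1, which breaks down deoxynucleotides, rose by 1.52 in MMTV-PyMT and by 2.84 in implanted ECs, and Dck, the deoxycytidine kinase, by 2.33 in implanted ECs. None was called lower (limma), although 14, 10 and 15 of the 29 had an unadjusted p under 0.05 in either direction. The adjusted p-value was passed on the higher side by 8, 5 and 5 of them, and on the lower side by 5, 1 and 8. The share of all tested genes that pass a p-value alone was not counted, so these counts have no background beside them. Voom called 1 lower in normal ECs, and scaling by total reads 1 lower in implanted ECs.

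Chosen for their roles after the values were seen, the cytosolic relative Cmpk1 and the CTP synthases Ctps and Ctps2 are given too. Cmpk1 had a mean FPKM of 14.8 under PBS and 20.7 under cGAMP in normal ECs, 31.2 and 31.9 in MMTV-PyMT ECs and 23.8 and 43.5 in implanted ECs. It was the more abundant of the 2 kinase transcripts under PBS and Cmpk2 the more abundant under cGAMP in each tissue by group means. Its log2 changes of 0.45, 0.04 and 0.84 stayed under the fold limit. Those in normal and implanted ECs passed the adjusted p-value (limma, adjusted p = 0.00491 and 1.56e-05). Ctps went from 11.6 to 15.1, from 9.67 to 13.6 and from 13.9 to 14.6, and Ctps2 from 7.59 to 6.72, from 7.86 to 7.14 and from 5.54 to 6.18. Ctps passed the adjusted p-value in normal and MMTV-PyMT ECs (limma, log2 changes 0.35 and 0.45, adjusted p = 0.0246 and 0.0143). Ctps2 did not pass it in any tissue.

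Genes related to viperin by chemistry or by contact stayed below the fold limit. For the 7 other radical SAM enzymes (log2 changes from −0.61 to 0.11), the 12 genes of cytosolic iron-sulfur assembly (−0.48 to 0.33) and 6 reported partners of viperin (−0.62 to 0.34), limma called 0 in any tissue. Of all tested genes 3.02%, 2.49% and 6.13% were called higher, so lists this small would hold few calls or none at that share. An unadjusted p under 0.05 was found for 2, 2 and 3 of the radical SAM enzymes, for 6, 4 and 3 of the assembly genes and for 2, 1 and 3 of the partners. Voom called 1 radical SAM enzyme lower in implanted ECs and otherwise none of these genes. Among the radical SAM enzymes, Elp3 (−0.30 and −0.55) and Tyw1 (−0.61 and −0.46) passed the adjusted p-value on the lower side in normal and implanted ECs. Rsad1 (−0.51) did so in implanted ECs. Of the assembly genes 5, 1 and 1 passed on the lower side. In these 2 lists 0 passed on the higher side. Of the partners, 1 in normal (Gbf1, −0.62) and 1 in implanted ECs passed on the lower side, and 2 in implanted ECs on the higher side. For these lists, too, the share of all tested genes that pass a p-value alone was not counted. The spread of the lists around the pair is plotted.

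**Figure D4:**
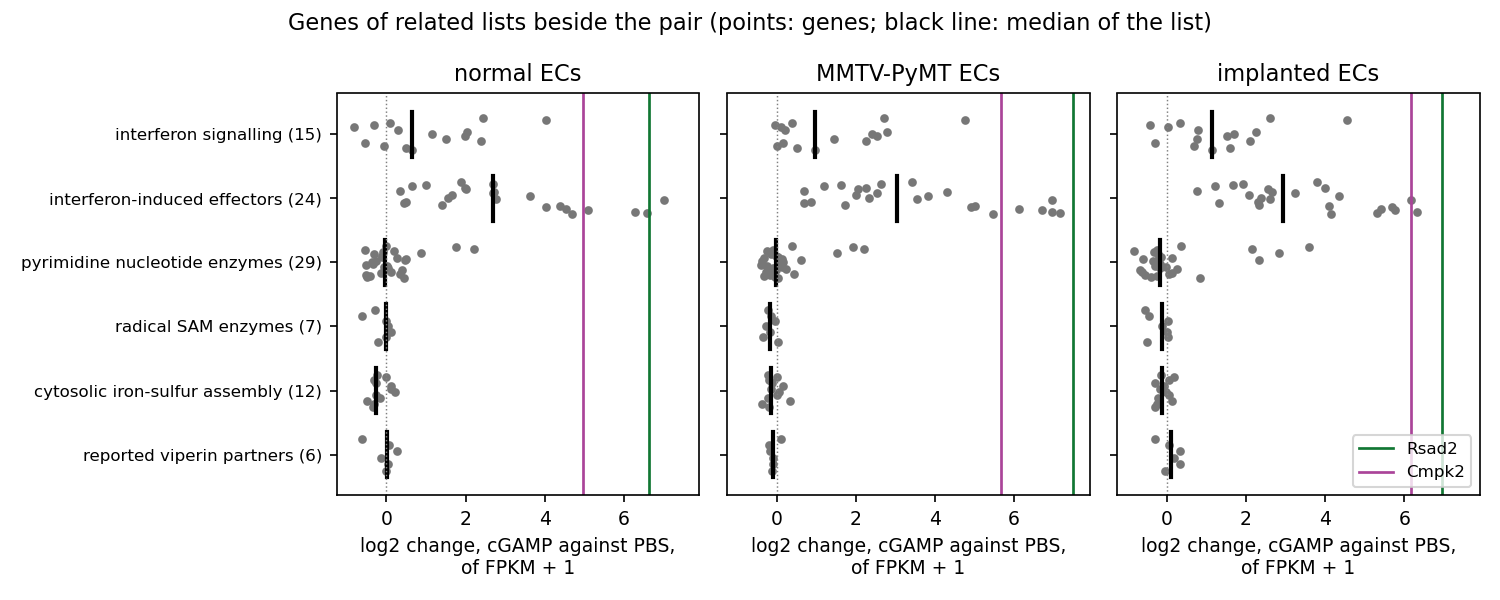
Log2 change of FPKM + 1 by cGAMP against PBS for the genes of 6 lists (grey points, number of genes in brackets) in ECs of each tissue, with the median of each list as a black line. Vertical lines mark Rsad2 (green) and Cmpk2 (purple). The medians of the effectors lie at 2.69 to 3.03, those of the radical SAM enzymes at −0.17 to −0.02, and the line of Rsad2 at 6.64 to 7.49.

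None of the 5 tested neighbours of the pair was called in any tissue. With 3.02%, 2.49% and 6.13% of all tested genes called higher, a set of 5 genes would mostly hold no call. On the side of Rsad2 the nearest listed gene was Rnf144a, which codes for a ubiquitin ligase and lies 27.5 kb away. Its mean FPKM went from 11.3 to 8.34 in normal ECs (limma, log2 change −0.42, adjusted p = 0.077), from 7.87 to 7.91 in MMTV-PyMT ECs (limma, 0.00, adjusted p = 0.993) and from 12.2 to 6.06 in implanted ECs (limma, −0.93, adjusted p = 0.000517). In implanted ECs it thus fell, short of the fold limit, where the pair rose. The antisense gene 4930549C15Rik lies inside Rnf144a, and its values (0.504 to 1.25 FPKM, changes of −0.21 to 0.18) cannot be told apart from reads of its host without strand. Next came Id2, an inhibitor of basic helix-loop-helix factors, 1346 kb away, at −0.47, −0.82 and −0.31.

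On the side of Cmpk2 the nearest listed gene was Sox11 at 854 kb, below the filter on low values and not tested. Its mean FPKM was 0.0807 under PBS and 0.282 under cGAMP in normal ECs, 0.259 and 0.659 in MMTV-PyMT ECs and 0.726 and 0.344 in implanted ECs. Colec11 at 2114 kb changed by −0.49, 0.16 and 0.21 and the ribosomal protein gene Rps7 at 2151 kb by 0.03, −0.00 and 0.09. With limma, an adjusted p-value under 0.05 was found for Id2 in normal and MMTV-PyMT ECs and for Rnf144a in implanted ECs. The table lists only genes detected in all 18 libraries, so other genes of the region were not analysed here.

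**Figure D5:**
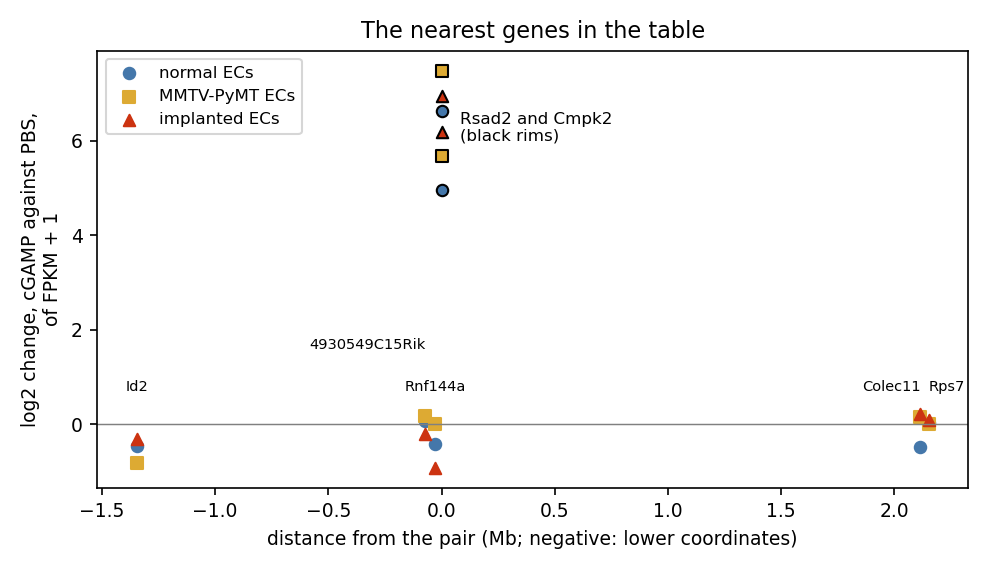
Log2 change of FPKM + 1 by cGAMP against PBS for Rsad2 and Cmpk2 (black rims, at 0) and for the 5 tested neighbours, against the distance from the pair in Mb. Circles are normal, squares MMTV-PyMT and triangles implanted ECs. The pair lies between 4.97 and 7.49, and the neighbours between −0.93 and 0.21.

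Since leukocytes also express both genes when interferon is present, the leukocyte markers were compared with the pair. Implanted cGAMP 2, which had a summed marker FPKM of 223 against 54.8 and 46.5 in the other libraries of its group, did not have the highest Rsad2 or Cmpk2 of the group. Without it, the log2 change in implanted ECs was 7.02 for Rsad2 and 6.24 for Cmpk2, and the difference of Cmpk2 effects between implanted and normal ECs was 1.28 (limma, adjusted p = 0.0169). In MMTV-PyMT ECs the markers summed to 17.7 to 28 under PBS and 19.7 to 23 under cGAMP, with the common leukocyte antigen gene Ptprc at a mean FPKM of 0.287 and 0.241, and the pair rose there by 7.49 and 5.68. The part of leukocytes and of other cell types was not tested, neither in the rises of the pair nor in the differences between tissues. A single library high in leukocyte markers cannot show it.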

How the data were processed

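ECs of normal mammary fat pad, MMTV-PyMT tumours and implanted tumours were sorted, and RNA was sequenced from 18 libraries (directional kit, paired-end reads). Per the study's methods and processing notes, the authors aligned reads to mm10 with STAR 2.7 and counted them with HTSeq. The authors deposited 1 table of FPKM values, and how FPKM were made from counts is not given in the sources used here. Of the 18 columns, 6 name a treatment but no tissue and were taken as normal fat pad because the tumour columns name theirs. Columns with no matched sample numbered 0 and values at 0 numbered 0, so only genes detected in all libraries are listed.

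Testing was limited to genes that reached 1 FPKM in 3 or more libraries and used log2(FPKM + 1) with limma 3.58.1 in R 4.3.3 (lmFit, contrasts.fit, eBayes with trend, 2-sided, all 18 libraries, 1 mean per group, 12 comparisons), with Benjamini-Hochberg adjustment. The fit was tested on simulated data. Whole reads were recovered from FPKM steps and GENCODE M21 exon lengths (tolerance 0.02 reads), 9064738 to 12054995 per library, and used for voom. Replicate pairs differed by more than sampling noise (chi-square per gene 4.07 to 31.1). Ratios were tested by exact permutation with numpy 2.4.6 in Python 3.11.15.

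The named genes are both members, the 5 tested genes most correlated with them, the 3 nearest listed genes on each side, and for each list the largest rises and falls. The members, lists and motifs were chosen with earlier results of these data known. Alternatives were the pseudocount, the filter, the scaling, voom, fewer groups in the fit, a replicate block and leaving out each library.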

Additional observations from a re-analysis of the deposited data

Results flagged for a closer look

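The effect of cGAMP on Cmpk2 differed between tissues by the test of the difference itself. Its log2 change was 6.18 in implanted ECs and 4.97 in normal ECs, a difference of 1.22 (limma with Benjamini-Hochberg adjustment, adjusted p = 0.0141). Over its 25 alternatives the difference ranged from 0.47 to 1.39 and the adjusted p-value from 0.00645 to 0.261. Groups of 3 libraries are too small for the search for single outlying libraries, so none was made.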

How the results depend on the processing

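The rises of Rsad2 and Cmpk2 after cGAMP kept their direction and their call in all 150 alternatives, with log2 changes from 4.82 to 7.97. The rise of their ratio (1.46) lay between 1.39 and 1.5 in its 21 alternatives, which did not include quantile normalization. The spread of the ratio among tissues (highest minus lowest mean log2 ratio) was 0.94 under PBS, from 0.76 to 1.07 in 11 alternatives chosen after the values were seen, and 1.08 under cGAMP, from 1.0 to 1.18 in 11. Over the 25 results on the pair, 594 of 621 alternatives kept direction and side of the threshold. The others concern the comparisons between tissues. Many of the 594 could not move the estimate, so the count is not a measure of robustness.

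With scaling by total reads, the differences of effect between implanted and normal ECs were −0.02 (Rsad2, from 0.32) and 0.88 (Cmpk2, from 1.22), and the levels of Rsad2 in implanted ECs under cGAMP were 0.88 above MMTV-PyMT ECs and 0.62 above normal ECs. With quantile normalization these were −0.90, 0.47, 0.56 and −0.12, and the differences of effect between implanted and MMTV-PyMT ECs were −1.21 (Rsad2) and −0.12 (Cmpk2). The cause was not tested. With voom, the difference of effect between MMTV-PyMT and normal ECs was 1.13 for Rsad2. Under PBS, Cmpk2 in implanted against normal ECs was 1.08 with a pseudocount of 0.1 and 1.07 with voom, and Rsad2 in MMTV-PyMT against normal ECs was −1.15 and −1.29.

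Leaving out each library in turn gave these ranges. The difference of effects of Cmpk2 in implanted minus normal ECs ran from 0.98 to 1.39, and that of Rsad2 in MMTV-PyMT minus normal ECs from 0.67 to 1.10. Under PBS, Cmpk2 ran from 0.91 to 1.33 in implanted against MMTV-PyMT ECs, from 0.80 to 1.12 in implanted against normal ECs and from −0.36 to 0.06 in MMTV-PyMT against normal ECs, and Rsad2 in the last from −1.21 to −0.77. Under cGAMP, Rsad2 ran from 0.96 to 1.23 in implanted against normal ECs and from −0.26 to 0.01 in MMTV-PyMT against normal ECs, the latter sign change without normal cGAMP 2. Groups left with 2 libraries shared the estimate of the spread with the other groups.

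With the replicate number as a block, all 25 results kept their call, and the ratio rose by 1.46 (exact sign-flip test over 9 pairs, p = 0.00391). Whether the numbers pair the libraries is not known. Same-numbered PBS and cGAMP libraries of a tissue correlated at −0.29 to 0.26 in their deviations from the group means, and differently numbered ones at −0.33 to 0.30. With 3 libraries per group, these correlations cannot settle it.

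Counts of called genes over the whole table were higher with a smaller pseudocount and with voom, least so for implanted minus normal ECs (950 and 927, from 655). With a pseudocount of 0.1 and with voom, the cGAMP effect called 1039 and 1120 genes in normal (518 in the reported fit), 600 and 601 in MMTV-PyMT (358) and 1768 and 1825 in implanted ECs (1010). The differences of effect called 540 and 522 for implanted minus MMTV-PyMT (346) and 378 and 436 for MMTV-PyMT minus normal ECs (245). Under PBS they were 1974 and 2073 for implanted against MMTV-PyMT (1025), 2520 and 2580 for implanted against normal (1602) and 3220 and 3357 for MMTV-PyMT against normal ECs (1945). Under cGAMP they were 2505 and 2578 (1451), 3104 and 3251 (1986) and 2604 and 2704 (1458). Of the genes called in implanted ECs 84.9% rose, and 55.9% with scaling by total reads. The same scaling took the share of rises among called genes from 74.6%, 80.0% and 73.1% to 47.5%, 40.1% and 52.5% in the differences of effect (implanted minus MMTV-PyMT, implanted minus normal, MMTV-PyMT minus normal), from 58.3% and 50.1% to 43.9% and 37.4% in implanted against MMTV-PyMT and normal ECs under PBS, and from 67.6%, 63.5% and 48.4% to 38.2%, 28.6% and 35.9% in the 3 tissue comparisons under cGAMP.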
